A study of Mus musculus with 24 samples.

Results

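Neutrophils and monocytes sorted from the colon lamina propria (LP) of mice were compared gene by gene. The comparison rests on 6 of the 24 RNA-seq libraries of the series, which were taken by their labels: neutrophils of pools III, IV and V against monocytes of the same 3 pools. The LP donors carried the strain label C57/BL. The labels call their tissue healthy, while the study's methods state that control mice drank dextran sodium sulphate, so the treatment of these donors is not settled here, and the labels give no age. Each library was made from cells of the pooled colons of several mice. Monocytes were gated as Ly6Chi MHCII- F4/80int CD11b+ cells and neutrophils as Ly6Ghi F4/80- CD11b+ cells. Tumour neutrophils and monocytes of pools I, II and V are used only to show where the LP contrast differs. Pool V of the tumours carried another strain label than pool V of LP, so the shared number does not pair them. The tumour cells carried the strain label APC/Min and came from colon adenomas of Apc Min/+ mice given dextran sodium sulphate. These mice carry 1 truncated copy of the tumour suppressor gene Apc, so tissue, strain and treatment cannot be told apart between LP and tumour. The remaining 12 libraries are F4/80hi macrophages of both tissues.

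Neutrophils and classical monocytes leave the bone marrow as close relatives that share a progenitor. Neutrophils are short-lived cells that carry granules filled with proteases and antimicrobial proteins and live largely on glycolysis. They respond to the growth factor G-CSF and, through the chemokine receptor CXCR2, to its ligands. Monocytes enter the gut wall through CCR2, depend on the CSF1 receptor, and can turn into macrophages that present antigen on MHC class II.

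Levels are given as log2 RPKM (reads per kilobase of gene, scaled to the reads of the library, on a log2 scale), always in the order of pools III, IV and V, and can be compared between genes because they are per length. A difference is the mean of the 3 neutrophil libraries minus the mean of the 3 monocyte libraries on that scale, with its standard error (SE), so that 1 is a doubling and a positive value means higher in neutrophils. A gene was called when its limma p-value, adjusted over all 12878 genes tested, was under 0.05. In bulk samples fewer cells of a type and less RNA per cell cannot be told apart.

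The neutrophil libraries held 19695559 to 37892775 reads assigned to genes and the monocyte libraries 20820984 to 40170107. The authors' scaling counted the neutrophil libraries at 0.63 to 0.682 of their summed reads and the monocyte libraries at 1.097 to 1.208, so the zero of each difference depends on it: the median of all genes was -0.24 as deposited and -1.04 with summed reads as library size. Neutrophil libraries had 13075 to 13825 genes above 3 reads and monocyte libraries 14227 to 14481, while 38.4% to 39.9% and 29.1% to 32.5% of the reads fell on the 100 most abundant genes.

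The LP monocyte libraries III and V stood apart. They carried transcripts of stratified squamous epithelium, a tissue that does not line the colon. For Krt14, a keratin of basal squamous cells, the monocyte libraries read 10.24, 1.14 and 7.71, and for Krt5, its partner keratin, 9.18, -0.72 and 6.67. Over 22 squamous genes, chosen after the values had been seen, the summed level was 3231 RPKM in library III and 1893 RPKM in library V but 9.72 RPKM in library IV, and 0.967 to 8.83 RPKM in the neutrophil libraries. These genes took 0.778% and 0.412% of the reads of libraries III and V. Of the 22 genes, 16 were called higher in monocytes, beside 30.4% of all genes tested. Because the genes were chosen after the values had been seen, this count is no test. Among all 3913 genes called higher in monocytes, 155 were at least 4-fold higher in both libraries III and V than in library IV. No such count is given for all genes tested, so an excess cannot be read from it. Some values that rest on libraries III and V are given below also with library IV alone, where that single library is assumed to vary like the other groups.

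**Figure D1:**
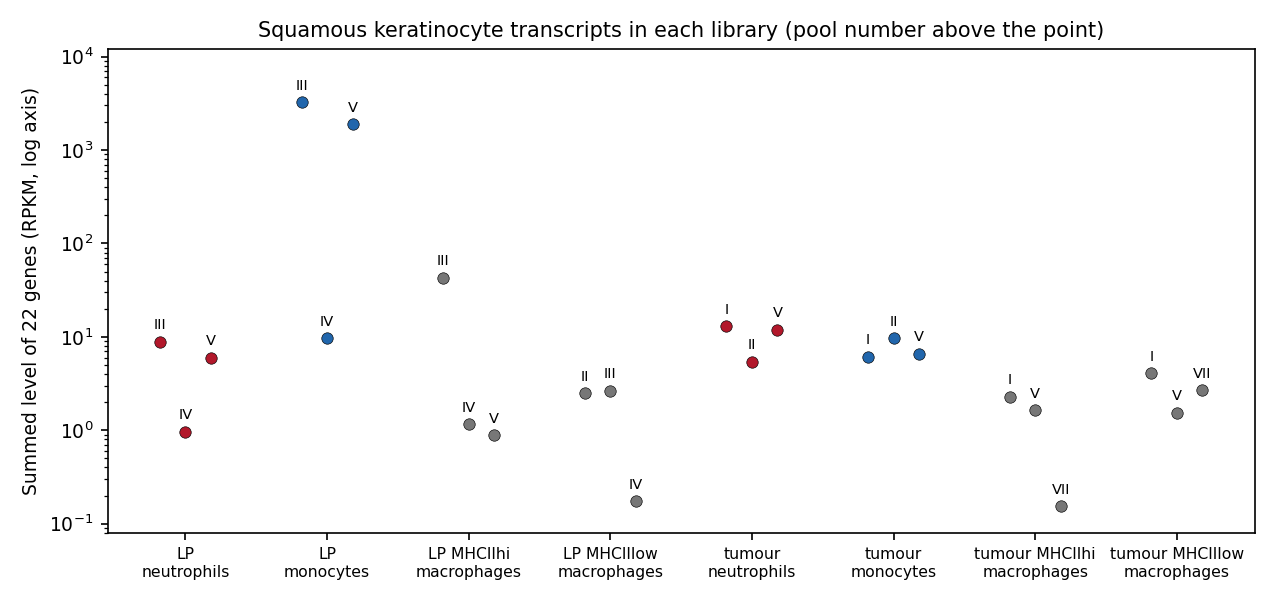
Summed level of 22 squamous keratinocyte genes (RPKM, log axis) in each of the 24 libraries, 1 point a library with its pool number above it. LP monocyte libraries III and V sit at 3231 and 1893 RPKM, whereas LP monocyte library IV is at 9.72 RPKM and no other library exceeds 43.1 RPKM.

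Markers of other cells were present in both populations. Of 10 B and plasma cell markers tested, 2 were higher in neutrophils, Ighm among them, and the summed level of the list, mostly immunoglobulin transcripts, was 3074 to 12990 RPKM in neutrophil libraries and 1489 to 5573 RPKM in monocyte libraries. Macrophage markers summed to 27.3 to 46 RPKM in neutrophils and 81.2 to 102 RPKM in monocytes, with 3 of 15 called higher in neutrophils (Cd4, Fcrls and Timd4) and 5 higher in monocytes (C1qb, C1qc, Mertk, Gpnmb and Mrc1). The eosinophil list summed to 22.7 to 42.7 and 4.12 to 35.4 RPKM, with Siglecf and Ccr3 of 4 tested called higher in neutrophils and Prg2 too low to be tested. Alox15 alone gave 32.9 RPKM in monocyte library III and had 0 reads in monocyte libraries IV and V. Without monocyte library III the call of Ccr3 was lost (3.28). Fibroblast and stromal markers summed to 72.7 to 106 and 27.9 to 43.2 RPKM, with Acta2 and Tagln of 12 called higher in neutrophils. Acta2 alone gave 43.7 to 69 and 1.39 to 4.7 RPKM, and was at a mean of 51.8 RPKM in tumour neutrophils. The other members tested, such as Dcn and Lum, were not called. Colon epithelial markers reached 28.8 to 93.3 RPKM in neutrophils and 26.6 to 227 RPKM in monocytes (Car4 and Lgals4 higher in neutrophils, Cdh1 higher in monocytes, of 13). In monocyte libraries III, IV and V this sum was 227, 26.6 and 75.8 RPKM, higher in the libraries with squamous transcripts. Cdh1 followed the same libraries, at 21.9, 4.93 and 17.9 RPKM, though library IV was still above each neutrophil library. Its difference with library IV alone is not given. Dendritic cell markers summed to 96.4 to 191 and 45.9 to 46.3 RPKM (1 of 9 called, Cd209a, higher in neutrophils). The T and NK cell list summed to 19.9 to 26.5 and 71.3 to 87.4 RPKM (Trbc1 higher in neutrophils, Il7r higher in monocytes, of 8). Il7r alone gave 10.5 to 14.4 and 67.3 to 80.3 RPKM, and was at a mean of 142 RPKM in LP MHCIIhi macrophages. For the platelet list the sums were 10.1 to 14 and 21.3 to 141 RPKM (Tubb1 and Gp9 higher in neutrophils, Pf4 higher in monocytes, of 4). Ppbp, which was not called, gave 136, 8.58 and 12 RPKM in monocyte libraries III, IV and V. Pf4 was at means of 238 and 631 RPKM in LP MHCIIhi and MHCIIlow macrophages. Mast cell and basophil markers stayed within 1.79 to 6.32 and 1.61 to 1.72 RPKM with 0 of 7 called by limma and 0 at an unadjusted p under 0.05, and erythroid markers were at or below 0.404 RPKM in sum, with Alas2 of 4 called higher in monocytes. These counts are to be held beside all genes tested, of which 24.1% were called higher in neutrophils and 30.4% higher in monocytes. The part of these cells in the results below was not tested, except where library IV alone is given.

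Transcripts of the proteins used for sorting were looked at first, and they are a check of the gates and not a result. Ly6g, the antigen of the neutrophil gate, was at 6.09, 6.52 and 5.41 in neutrophils and -3.41, -0.89 and -2.99 in monocytes, a difference of 8.44 ± 1.23 (adjusted p = 9.4e-06). Ly6c2, the main gene of the monocyte antigen, was not called: its levels of 5.41, 5.67 and 5.88 overlapped with 5.43, 6.44 and 6.33 (difference -0.41 ± 0.85, adjusted p = 0.7). It shares 13.6% of its 51-base windows with Ly6c1, which was too low to be tested. Adgre1, which encodes F4/80, differed by -1.13 ± 0.19, Itgam (CD11b) by 0.99 ± 0.20 and Ptprc (CD45) by 1.32 ± 0.13, and all 3 were called. The monocyte gate was MHCII-, while RNA of the class II chain H2-Ab1 was at 8.66, 8.60 and 8.95 in monocytes and 8.81, 8.45 and 9.62 in neutrophils (adjusted p = 0.78), and H2-Aa differed by 0.90 ± 0.61 (adjusted p = 0.22, and 0.034 with the pool as a block). Itgam and H2-Aa depended on the scaling, with -0.09 and -0.20 under quantile normalization, and 66.3% of the windows of Itgam are shared with an overlapping predicted gene.

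Neutrophils and monocytes differed across 54.5% of the genes tested. Of 12878 genes tested, 3103 (24.1%) were called higher in neutrophils and 3913 (30.4%) higher in monocytes. Each count of list members below is to be held beside these shares. Changes of at least 8-fold were found for 825 genes higher in neutrophils and 1093 higher in monocytes, and changes of at least 64-fold for 247 and 217. The libraries of the populations did not overlap in 2973 and 3525 of the called genes, against 28.2% and 32.5% of all genes tested with all neutrophil or all monocyte libraries on top. The balance between the directions depends on the scaling: 44.2% of the calls were higher in neutrophils as deposited, 54.1% after each library was centred on its median, and 23.3% with summed reads as library size. With library IV as the only monocyte library, 2228 genes were called higher in neutrophils and 2525 higher in monocytes.

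**Figure D2:**
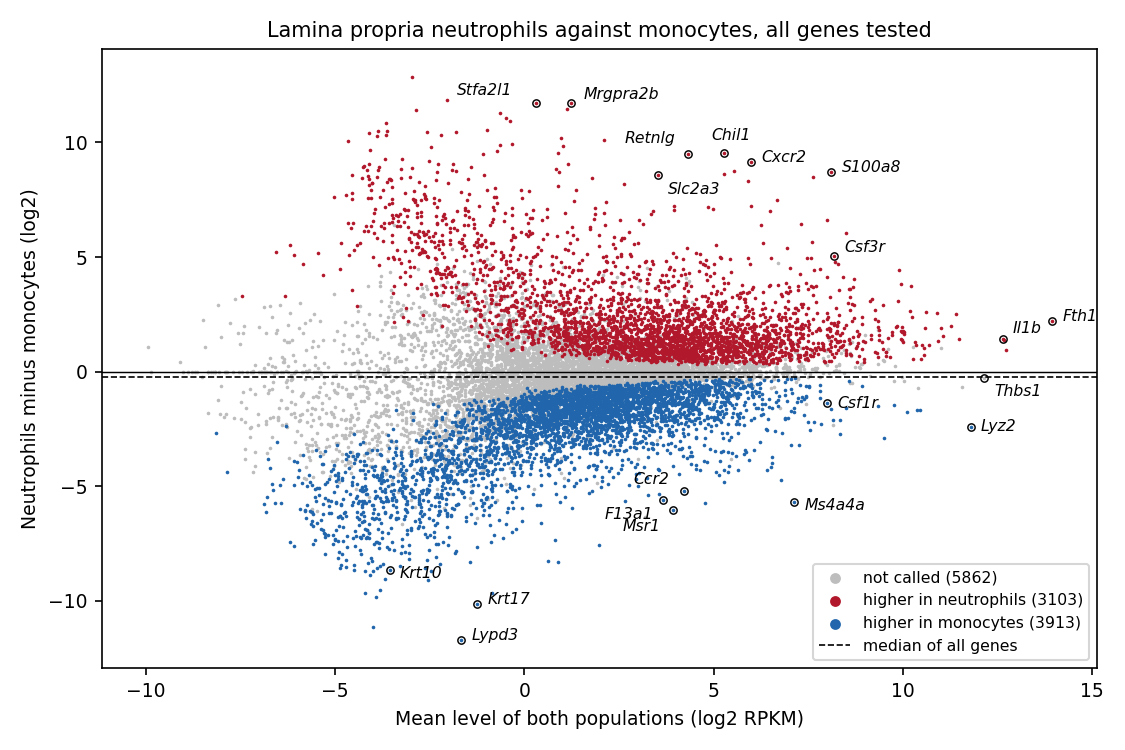
Difference between LP neutrophils and LP monocytes (log2, vertical) against the mean level of both populations (log2 RPKM, horizontal) for 12878 genes, 1 point a gene, with 3103 genes called higher in neutrophils in red, 3913 called higher in monocytes in blue and the rest in grey. Neutrophil genes such as Cxcr2 and S100a8 lie 8 to 10 log2 units above 0 at high mean level, Ccr2 and Msr1 lie below -5, and the dashed line marks the median of -0.24.

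Some of the largest rises in neutrophils were genes that monocyte libraries hardly read at all. Sycp2, a protein of meiotic chromosomes, was at 3.61, 3.18 and 3.55 in neutrophils and had no more than 3 reads in any monocyte library, which makes it at least 730-fold higher. Stfa2l1, a cysteine protease inhibitor of the stefin A family, stood at 6.51, 6.13 and 5.84 and was at least 335-fold higher, though 23.9% of its windows are shared with its relatives. Rufy4, with levels of 4.31, 4.56 and 3.98, was at least 510-fold higher. Mrgpra2b, a relative of itch receptors, was at 6.93, 7.13 and 7.24 against -7.23, -3.74 and -2.94 (difference 11.74 ± 1.14, adjusted p = 4.4e-08). Of its 51-base windows, 81% are also in Mrgpra2a, so reads of these neighbours cannot be fully told apart.

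Several of the 12 largest rises have known roles in neutrophils. Itgb2l, a beta integrin chain, differed by 11.30 ± 1.80 and Olfm4, a glycoprotein of specific granules, by 10.19 ± 1.65. Chil1, a chitinase-like granule protein, was among the abundant ones, at 10.23, 10.17 and 9.77 against 0.74, 1.30 and -0.54 (difference 9.55 ± 2.16, adjusted p = 9.3e-04). Alox5, the lipoxygenase that makes leukotrienes, was at 5.92, 6.40 and 5.52 against -2.03, -0.86 and -8.86 (difference 9.87 ± 1.46, adjusted p = 1.1e-05). Prok2, a secreted chemoattractant peptide, differed by 10.10 ± 1.57, Ceacam10, an adhesion molecule, by 9.65 ± 1.67, Amer2, a regulator of Wnt signalling, by 11.08 ± 1.65, and Krt83, a hair keratin, by 10.94 ± 1.47. Krt83 shares 21.6% of its windows with other genes, mostly Krt86.

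Among the 12 largest falls, 7 were high in monocyte libraries III and V and low in library IV, and Calm4 was high in library V (-0.12, -0.23 and 4.97). Lypd3, Krt17, Krt10 and Calm4 had no more than 3 reads in any neutrophil library and were at least 547-fold, 345-fold, 286-fold and 62.2-fold higher in monocytes. Yet Lypd3 was at 5.34, 0.29 and 6.94 and Krt17 at 6.32, 0.40 and 4.78 in the monocyte libraries, low in library IV. Aqp3 (6.51, -1.15 and 6.53), Krt16 (7.13, -1.18 and 8.29) and Gjb2 (4.10, 1.30 and 4.23) showed the same order. With library IV alone, Aqp3 (-4.54), Krt16 (-2.33), Gjb2 (-4.95), Krt17 and Krt10 were no longer called. The call of Gjb2 was also lost without any one of neutrophil libraries III (-6.33) and V (-6.40) and monocyte libraries III (-6.41) and V (-6.35). The other 4 were of even level in the monocyte libraries: Oaf with 4.60, 3.86 and 5.01 (difference -7.34 ± 2.00), the B7 family member Cd276 with 4.08, 3.54 and 3.64 (-6.60 ± 1.36, adjusted p = 0.074 with the pool as a block among the 6 LP libraries), the scavenger receptor Msr1 with 6.75, 7.06 and 7.0 (-6.03 ± 0.34) and the adhesion receptor Adgre4 with 4.31, 4.01 and 4.38 (-5.96 ± 0.51).

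When at least 10 RPKM was required in each of the 3 monocyte libraries, a rule added after the values had been seen, the largest falls included Oaf, Cd276, Msr1, Adgre4, Plcb1, Ms4a4a, Vcan, F13a1, Tpst1, Ednrb and Tmem51. Ms4a4a, a tetraspan membrane protein, was the most abundant of these in monocytes, at 9.68, 10.15 and 10.06 against 3.21, 4.12 and 5.54 in neutrophils (difference -5.68 ± 0.36, adjusted p = 1.6e-10). Ednrb, an endothelin receptor, was at 5.72, 6.06 and 6.07 against -0.20, -0.51 and 2.39 (-5.39 ± 0.52, adjusted p = 4.0e-08). In these 2 genes neutrophil library V was the highest of the neutrophil libraries.

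Of the 8 most abundant nuclear transcripts of each population, 4 were common to both. By mean RPKM they were Fth1 (34074), Cd14 (10552), Il1b (10469), Actb, Cxcl2, S100a8, H2-D1 and Srgn in neutrophils, and Lyz2 (8261), Fth1 (7355), Thbs1 (5024), Actb, Cd14, Il1b, Psap and Tgfbi in monocytes. Fth1, the heavy chain of ferritin, was higher in neutrophils by 2.23 ± 0.33 (adjusted p = 1.2e-05), and Srgn, the proteoglycan serglycin that packs granule proteins, by 2.54 ± 0.25 (adjusted p = 5.0e-08). Cd14, a co-receptor for bacterial lipopolysaccharide, differed by 1.37 ± 0.27 and the cytokine gene Il1b by 1.43 ± 0.28. H2-D1, an MHC class I heavy chain that shares 12.2% of its windows with relatives, differed by 1.42 ± 0.18. Actb differed by 0.93 ± 0.26, and turned to -0.09 under quantile normalization. In a fit of the 6 LP libraries alone with the pool as a block, Fth1 (adjusted p = 0.069), Il1b (0.072), Cd14 (0.08) and Actb (0.17) were not called. Psap, a lysosomal activator of lipid hydrolases, (-1.69 ± 0.17) and Tgfbi, a secreted matrix protein (-1.78 ± 0.19), were lower in neutrophils. Thbs1, a matrix glycoprotein at 11.88, 11.91 and 12.24 against 12.07, 12.55 and 12.23, overlapped between the populations (difference -0.27 ± 0.42, adjusted p = 0.61).

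Neutrophil identity genes were higher in neutrophils almost without exception. Of 30 tested, 29 were called higher in neutrophils, with a median difference of 6.33 (5.33 with summed reads), beside -0.24 over all genes tested. Csf3r (ENSMUSG00000028859.10, chr4:126024550-126044440 in GRCm38, as all positions here), the G-CSF receptor, was at 10.74, 10.68 and 10.68 in neutrophils and 5.32, 5.74 and 5.92 in monocytes. Its difference of 5.04 ± 0.16 (32.9-fold, adjusted p = 1.5e-14) came with no overlap between the libraries. Cxcr2 (ENSMUSG00000026180.8, chr1:74153989-74161246), which calls neutrophils out of the marrow and into tissue, was at 10.43, 10.64 and 10.63 against 1.30, 2.29 and 0.69 (difference 9.14 ± 1.19, adjusted p = 2.3e-06). Its neighbour in the family, Cxcr1, was lower, at 5.38, 5.35 and 5.02, but again far above the monocyte libraries (difference 8.85 ± 1.5).

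The calgranulins S100a8 (chr3:90668978-90670035) and S100a9 (chr3:90692632-90695721), which form the antimicrobial complex calprotectin, are neighbours on chromosome 3. S100a8 was at 12.55, 12.68 and 12.13 in neutrophils and 3.65, 4.5 and 3.10 in monocytes (difference 8.70 ± 0.83, adjusted p = 3.7e-08). S100a9 was at 11.97, 11.93 and 11.71 and 3.17, 3.65 and 3.30 (difference 8.5 ± 0.97, adjusted p = 3.9e-07). Both ranked among the most abundant neutrophil transcripts, and both were detected in every monocyte library. Retnlg, a resistin-like hormone, was at 9.30, 9.56 and 8.34 against -0.90, 0.66 and -1.10 (9.51 ± 1.23), and Mmp9, the gelatinase of the tertiary granules, at 9.76, 9.96 and 9.11 against 0.74, 1.14 and 1.02 (8.64 ± 0.52). In both genes neutrophil library V was the lowest of the 3.

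Hdc, which makes histamine, differed by 6.04 ± 0.40, Asprv1, an aspartic protease, by 8.74 ± 1.53, and Il1r2, the decoy receptor for interleukin-1, by 4.42 ± 0.39. Il1r2 remained at 7.75, 7.69 and 7.63 in monocytes. The single member that was not called was Cd177, a surface antigen of neutrophils, at 8.37, 9.12 and 6.80 against 6.56, 6.56 and 6.60: every neutrophil library was higher, but they spread widely (difference 1.53 ± 0.80, adjusted p = 0.11). Without neutrophil library V it was called (2.18).

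**Figure D3:**
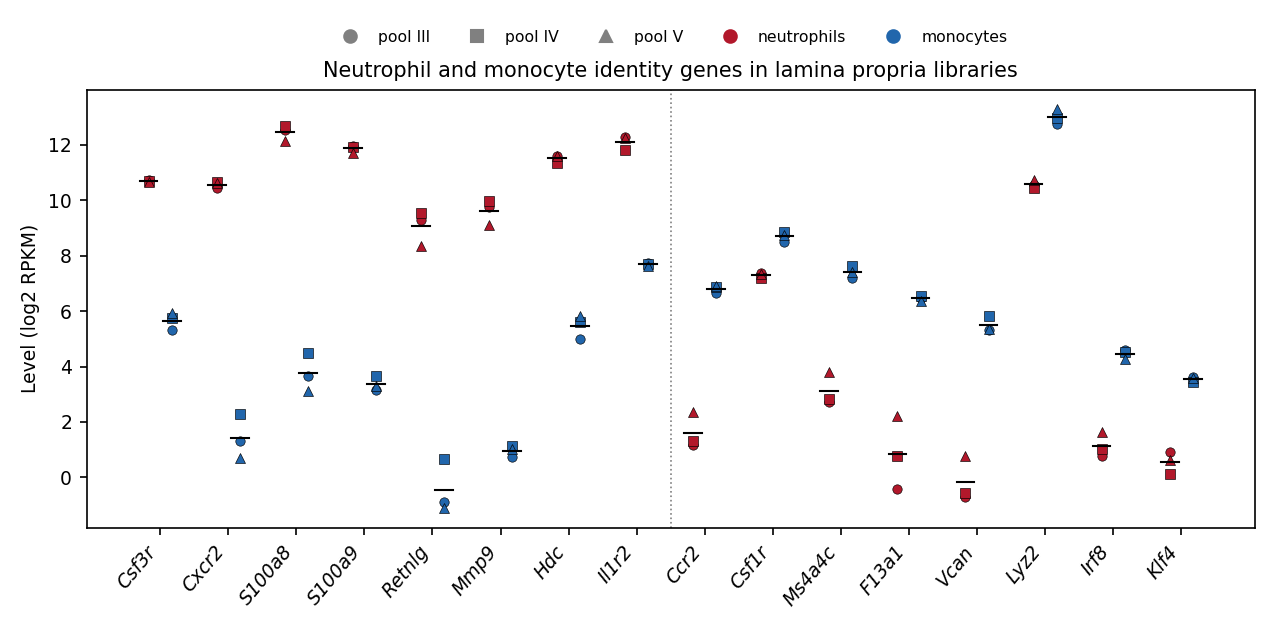
Level (log2 RPKM) of 8 neutrophil identity genes (left of the dotted line) and 8 monocyte identity genes (right) in the 3 LP neutrophil libraries (red) and the 3 LP monocyte libraries (blue), with the pool given by the marker shape and the mean by a bar. No gene shown overlaps between the populations, Csf3r differs by 5.04 and Ccr2 by -5.20, and neutrophil library V (triangles) is the highest neutrophil library for Ccr2, F13a1 and Vcan.

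Monocyte identity genes went the other way. Of 35 monocyte identity genes tested, 26 were higher in monocytes and 2 higher in neutrophils (median -3.31). Ccr2 (ENSMUSG00000049103.9, chr9:124101950-124113557), the receptor for Ccl2 that monocytes need to leave the marrow, was at 6.64, 6.87 and 6.91 in monocytes and 1.16, 1.32 and 2.35 in neutrophils. The difference was -5.20 ± 0.36 (36.7-fold, adjusted p = 4.6e-10), and the groups did not overlap. F13a1, the coagulation factor XIII A chain, was at 6.47, 6.53 and 6.38 against -0.42, 0.76 and 2.23 (-5.60 ± 0.51), and Vcan, the proteoglycan versican, at 5.30, 5.83 and 5.36 against -0.70, -0.56 and 0.77 (-5.66 ± 1.30). Ms4a4c, a tetraspan membrane protein, differed by -4.29 ± 0.41.

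Csf1r, the receptor for CSF1, separated the populations less than these. It was at 8.49, 8.84 and 8.75 in monocytes and still at 7.36, 7.21 and 7.35 in neutrophils (difference -1.39 ± 0.14, adjusted p = 9.7e-08), and 873 of its exonic bases overlap Hmgxb3 on the other strand. Lyz2, lysozyme, was at 12.75, 12.96 and 13.28 and 10.56, 10.45 and 10.75 (-2.41 ± 0.27, adjusted p = 2.8e-07), and 14.8% of its windows are shared with Lyz1. Cx3cr1, the fractalkine receptor, was low even in monocytes, at 2.35, 2.02 and 2.85 (difference -5.08 ± 0.62). Chil3 missed the threshold, at 8.92, 9.59 and 9.45 in monocytes and 7.07, 7.87 and 6.07 in neutrophils (-2.31 ± 1.27, adjusted p = 0.13, and 0.013 with the pool as a block), and 26.2% of its windows are shared with relatives. The exceptions that were higher in neutrophils were the chemokine Ccl6 (1.88 ± 0.33) and the extracellular matrix gene Emilin2 (0.98 ± 0.22), and the latter turned to -0.36 under quantile normalization. Of the 26 monocyte-high members, 20 had their highest neutrophil level in library V.

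Promoter bases of 5 genes are shown to place short letter patterns beside the levels. They were chosen because the window shown held at most 5 exonic bases of the gene models. The 250 bases before the RefSeq start (GRCm38.p6) were searched on both strands for a C/EBP-type pattern (TTNNGNAA) and a PU.1-type pattern (GAGGAA), whose letters can overlap. The last 150 bases before the start are printed on the gene's strand, with matches in capitals. S100a9, Cxcr2 and Retnlg are neutrophil-high genes, and Vcan and the Fc receptor gene Fcgr1, given below, are monocyte-high ones.
S100a9, chr3:90695722-90695871, minus strand: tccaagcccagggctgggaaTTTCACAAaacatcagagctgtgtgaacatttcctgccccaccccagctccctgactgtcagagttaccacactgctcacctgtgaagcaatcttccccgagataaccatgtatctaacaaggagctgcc
Cxcr2, chr1:74153844-74153993, plus strand: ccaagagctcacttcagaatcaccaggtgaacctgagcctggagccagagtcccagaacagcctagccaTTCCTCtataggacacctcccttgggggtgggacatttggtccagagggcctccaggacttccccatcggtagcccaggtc
Retnlg, chr16:48872458-48872607, plus strand: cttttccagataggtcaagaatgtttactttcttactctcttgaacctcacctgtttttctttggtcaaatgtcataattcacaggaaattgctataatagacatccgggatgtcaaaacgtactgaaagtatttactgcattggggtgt
Vcan, chr13:89742513-89742662, minus strand: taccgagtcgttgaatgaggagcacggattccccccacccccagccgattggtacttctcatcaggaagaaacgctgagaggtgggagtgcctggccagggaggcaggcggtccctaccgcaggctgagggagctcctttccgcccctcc
Fcgr1, chr3:96293970-96294119, minus strand: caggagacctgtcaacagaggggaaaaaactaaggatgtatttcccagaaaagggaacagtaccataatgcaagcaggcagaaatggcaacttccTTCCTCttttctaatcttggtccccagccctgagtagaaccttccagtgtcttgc

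The printed stretch of S100a9 held 1 C/EBP-type match starting 130 bases before the start, that of Cxcr2 held 1 PU.1-type match at 81 bases, and that of Fcgr1 held 1 PU.1-type match at 55 bases. Farther up, S100a9 and Retnlg each had 1 C/EBP-type match, at 236 and 246 bases. Over all 32851 starts in the table outside chromosome 18, 36.8% held the C/EBP-type and 23.3% the PU.1-type pattern. Of the genes tested, 9067 matched the table by symbol, and 33.5% held a C/EBP-type pattern in at least 1 window. That share was 36.8% of the 2193 matched genes called higher in neutrophils and 33.2% of the 2965 called higher in monocytes. The PU.1-type shares were 29.9% and 24.2%, beside 26.7% of the matched genes tested. The composite PU.1-IRF pattern, held by 2.3% of all starts, had no match in the 5 genes. The patterns are a description of letters only.

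Granule genes were mostly higher in neutrophils, but their spread between pools was large. Of 22 specific and gelatinase granule genes tested, 15 were higher in neutrophils and 3 higher in monocytes (median 1.88, 1.04 with summed reads). Lcn2, the siderophore binder lipocalin-2, was at 9.48, 9.92 and 9.45 against 1.86, 3.18 and 2.11 (difference 7.23 ± 0.86, adjusted p = 7.4e-07). Ngp, a neutrophilic granule protein, was at 10.97, 11.46 and 8.89 against 1.87, 3.52 and 3.41 (7.51 ± 2.06, adjusted p = 0.0045), and Camp, the cathelicidin precursor, differed by 8.09 ± 1.17. Neutrophil library V was the lowest of the 3 for 11 of the 15 neutrophil-high members. Ltf, lactoferrin, overlapped between the populations, at 9.74, 10.17 and 7.35 against 8.89, 1.03 and 3.08, with monocyte library III high (difference 4.75 ± 2.17, adjusted p = 0.071). It was called without that library (7.03). Mmp8, the neutrophil collagenase, differed by 3.30 ± 1.13, and its call was lost without neutrophil library III (3.09) or IV (3.01).

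The 3 members higher in monocytes were Lyz2, Cybb and Arg1. Arg1, which in mice is a classical product of alternatively activated macrophages and which human neutrophils store in granules, was at 8.91, 9.71 and 8.80 in monocytes and 4.12, 3.82 and 5.26 in neutrophils (difference -4.74 ± 0.57, adjusted p = 9.1e-07). Of 10 listed azurophil granule genes, which are transcribed in marrow precursors, 5 were high enough to test, and 1 was called in each direction. Serpinb1a, an inhibitor of neutrophil serine proteases, was at 3.80, 4.35 and 3.93 in neutrophils and 5.49, 1.73 and 3.44 in monocytes (adjusted p = 0.58), and with library IV alone it was called higher in neutrophils (2.30). Prtn3, proteinase 3, was at -1.35, -1.93 and -0.62 against -2.09, -0.54 and -0.88 (adjusted p = 0.94). Prss57 was at least 22.4-fold higher in neutrophils, but 1157 bases of its exons overlap Fstl3 on the other strand, and the library kit does not mark strand. Gusb, a lysosomal glucuronidase, was lower in neutrophils (-1.98 ± 0.21).

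Components of the NADPH oxidase, the enzyme of the oxidative burst, did not move together. Of 10 tested, 8 were higher in neutrophils and 1 higher in monocytes (median 1.15, 0.32 with summed reads). The cytosolic subunits Ncf1 (3.79 ± 0.20) and Ncf4 (2.04 ± 0.17) and the GTPase Rac2 (3.24 ± 0.21) were higher in neutrophils. Ncf1 was at 8.49, 8.51 and 8.19 against 4.34, 4.80 and 4.66 (adjusted p = 7.1e-12). The catalytic membrane subunit Cybb was the exception, at 6.02, 6.23 and 5.34 in neutrophils and 7.94, 7.86 and 7.92 in monocytes (-2.04 ± 0.23, adjusted p = 2.6e-07), while its partner Cyba differed by 0.93 ± 0.27 (0.67 and no longer called without monocyte library III). Of 10 S100 genes tested, 4 were higher in neutrophils and 3 in monocytes, the latter including S100a10 (-4.29 ± 0.38) and S100a4 (-4.18 ± 1.22). S100a4 shares 47.3% of its windows with a predicted gene that overlaps it.

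Receptors that guide migration were called in both directions. Of 18 chemokine receptors tested, 7 were higher in neutrophils and 3 higher in monocytes, Ccr2 and Cx3cr1 among them. Over all genes tested the shares were 24.1% and 30.4%. Cxcr4, which retains neutrophils in the marrow and marks aged ones, was at 7.54, 7.15 and 7.51 against 3.82, 4.16 and 3.98 (difference 3.41 ± 0.23, adjusted p = 3.2e-10). Ccr1 was abundant in both, at 10.97, 10.75 and 10.83 and 9.11, 9.29 and 9.23 (1.64 ± 0.16). Cxcr5, a receptor of B cells, was called higher in neutrophils (6.73 ± 2.10), with monocyte levels of 0.00, 0.02 and -8.32 and the B cell markers above, and it was no longer called without monocyte library V (3.95).

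Of 15 other chemoattractant receptors, 9 were higher in neutrophils and 4 higher in monocytes. Hcar2, the receptor for nicotinic acid and butyrate, was at 11.52, 11.25 and 11.09 in neutrophils and 5.04, 4.72 and 4.32 in monocytes (difference 6.60 ± 0.20, 96.8-fold, adjusted p = 9.0e-15). The formyl peptide receptors Fpr1 (5.63 ± 0.50) and Fpr2 (2.78 ± 0.22), which sense bacterial peptides, and the C5a receptor C5ar1 (1.95 ± 0.15) rose as well. Fpr2 shares 30.9% of its windows with other genes. The C3a receptor C3ar1 (-4.30 ± 0.34) and the chemerin receptor Cmklr1 (-5.26 ± 1.13) were higher in monocytes.

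Of 26 chemokines tested, 6 were higher in neutrophils and 10 higher in monocytes (median -0.99), shares of 23.1% and 38.5% beside 24.1% and 30.4% over all genes tested. The CXCR2 ligand Cxcl2 was at 12.80, 12.68 and 12.49 against 9.87, 10.74 and 9.77 (2.53 ± 0.41), and Ccl3 at 10.52, 10.74 and 10.21 against 5.93, 7.18 and 6.01 (4.11 ± 0.30, adjusted p = 9.8e-10). Cxcl3 (1.79 ± 0.48) and Ccl4 (2.12 ± 0.48) were also higher. Monocytes had more of the eosinophil attractant Ccl24 (-4.43 ± 0.69), of the scavenger ligand Cxcl16 (-2.35 ± 0.17), and of the interferon-induced ligands of CXCR3, Cxcl9 (-2.14 ± 0.74) and Cxcl10 (-1.15 ± 0.42). Cxcl9 lost its call without monocyte library III (-1.92) or IV (-2.06) or neutrophil library V (-1.99), and Cxcl10 without monocyte library IV (-0.85) or neutrophil library IV (-1.12) or V (-0.86). Monocyte library IV was the highest of the 3 for Cxcl2, Ccl3, Ccl4 and Cxcl3. With library IV alone, Ccl4 (0.97) and Cxcl3 (0.87) were not called.

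The interleukin-1 family leaned towards neutrophils. Of 26 genes tested, 16 were higher in neutrophils and 2 higher in monocytes (median 1.39, 0.57 with summed reads). Il1f9, which encodes the alarmin IL-36 gamma, was at 10.55, 10.71 and 10.34 against 4.10, 3.99 and 4.14 (6.45 ± 1.40, adjusted p = 6.6e-04). The accessory chains Il1rap (4.29 ± 0.26) and Il18rap (4.80 ± 0.58) and the inflammasome sensor Nlrp3 (1.83 ± 0.27) were higher in neutrophils. The antagonist Il1rn differed by 1.34 ± 0.18, a direction that turned to -0.13 under quantile normalization. Higher in monocytes were the signalling receptor Il1r1 (-2.30 ± 0.61) and Nlrc4, the flagellin inflammasome sensor, at 3.11, 3.15 and 3.42 against 0.08, 0.65 and -0.15 (-3.03 ± 0.22).

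Of 34 TNF, NF-kappaB and inducible cytokine genes, 20 were higher in neutrophils and 4 higher in monocytes (median 1.04, 0.17 with summed reads). Csf1, the growth factor of macrophages, was at 5.81, 5.36 and 4.84 in neutrophils and 0.36, 0.51 and 1.28 in monocytes (difference 4.62 ± 0.41, adjusted p = 1.5e-08). Tnfsf14 (3.26 ± 0.38), the IL-23 subunit Il23a (3.24 ± 1.15), the NF-kappaB cofactor Nfkbiz (2.57 ± 0.24) and the prostaglandin synthase Ptgs2 (1.5 ± 0.22) were higher in neutrophils. The call of Il23a was lost without monocyte library III (2.42) or V (3.08) or neutrophil library IV (3.01). Monocytes had more Il6 (-2.55 ± 0.46), Cd40 (-2.53 ± 0.35), Tgfb1 (-2.01 ± 0.38) and Tnfsf9 (-1.83 ± 0.54). Of 25 growth factor and cytokine receptors, 15 were higher in neutrophils, including Il17ra (2.32 ± 0.22) and Tgfbr2 (2.42 ± 0.21), and 5 in monocytes, including the IL-6 signalling chain Il6st (-3.28 ± 0.52) and Il17rc (-4.70 ± 1.31, adjusted p = 0.078 in the blocked fit of the 6 LP libraries). The median of that list was 0.85 as deposited and 0.02 with summed reads.

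Transcription factors of the lineages were measured in both directions. Of 60 tested, 28 were higher in neutrophils and 17 higher in monocytes, and the median changed sign with the scaling (0.66 as deposited, -0.16 with summed reads). Nfe2 was at 7.15, 7.39 and 6.85 in neutrophils and 2.02, 2.80 and 2.87 in monocytes (4.56 ± 1.04), and Mxd1, a partner of Max that opposes Myc, at 11.59, 11.32 and 11.33 and 8.35, 8.53 and 8.14 (3.08 ± 0.31, adjusted p = 8.4e-08). Bcl6 differed by 2.07 ± 0.42. Irf8, which directs progenitors to monocytes, was at 4.59, 4.51 and 4.27 in monocytes and 0.77, 1.04 and 1.63 in neutrophils (-3.31 ± 0.19, adjusted p = 4.8e-11), and Klf4, needed for monocyte formation, at 3.64, 3.43 and 3.59 and 0.92, 0.11 and 0.61 (-3.0 ± 0.35). Pparg (-6.33 ± 0.97), Tfec (-4.61 ± 0.50), Maf (-4.17 ± 0.41) and the liver X receptor Nr1h3 (-2.93 ± 0.37), all known in macrophages, were higher in monocytes.

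Regulators shared by the lineages were less clearly apart. Spi1, which encodes PU.1, was at 9.09, 7.62 and 9.64 in neutrophils and 7.65, 8.14 and 8.10 in monocytes (0.82 ± 0.38, adjusted p = 0.078). It was called without neutrophil library IV (1.40) and turned to -0.39 under quantile normalization. Cebpe, active in granulocyte precursors, was near the limit in both (difference 1.17 ± 1.39, adjusted p = 0.5). Cebpb followed the pool and not the population, at 1.33, 0.76 and 8.27 in neutrophils and 1.86, 0.90 and 5.63 in monocytes, high in both libraries of pool V (adjusted p = 0.75). Of Cebpb, 312 exonic bases overlap Tmem189 on the other strand. Cebpd was called higher in neutrophils (1.57 ± 0.48), with library V the highest of 5.84, 5.51 and 7.43 and no call without it (0.98).

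Of 22 Toll-like receptor genes and adaptors, 11 were higher in neutrophils and 9 higher in monocytes. The receptors for lipoproteins and lipopolysaccharide, Tlr6 (3.70 ± 0.32), Tlr1 (2.69 ± 0.32), Tlr4 (1.35 ± 0.22) and Tlr2 (0.98 ± 0.23), were higher in neutrophils, the last turning to -0.17 under quantile normalization. The endosomal receptor for single-stranded RNA, Tlr7, was lower (-1.72 ± 0.22), and Tlr3, for double-stranded RNA, had no more than 3 reads in any neutrophil library and was at least 4.72-fold higher in monocytes. Cd180 was also lower (-4.29 ± 0.86, adjusted p = 0.064 with the pool as a block among the 6 LP libraries). Tlr1 and Tlr6 share 15.2% and 12.1% of their windows, mostly with each other.

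Of 38 lectins, Fc receptors and other recognition receptors, 21 were higher in neutrophils and 8 higher in monocytes (median 1.22). The Fc receptors were split: the low-affinity Fcgr3 (1.74 ± 0.19) and Fcgr4 (2.06 ± 0.46) were higher in neutrophils, and the high-affinity Fcgr1 was at 7.41, 8.01 and 7.66 in monocytes against 2.16, 2.85 and 3.60 (-4.82 ± 0.36, adjusted p = 1.2e-09). The inhibitory Fcgr2b was lower in neutrophils as well (-2.98 ± 0.19). Trem1, which amplifies inflammation, was at 11.02, 10.79 and 10.95 against 7.94, 8.19 and 7.96 (2.89 ± 0.30), while Trem2 (-4.05 ± 0.50), the fatty acid transporter Cd36 (-4.10 ± 0.73), the mannose receptor Mrc1 (-2.72 ± 0.59) and Msr1 were higher in monocytes. Cd300c differed by 5.57 ± 1.24 (adjusted p = 0.059 in the same blocked fit). Of 21 complement genes, 7 were higher in neutrophils and 5 in monocytes, beside 24.1% and 30.4% of all genes tested.

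Adhesion genes were mostly higher in neutrophils, with 20 of 32 tested and 7 higher in monocytes (median 1.18, 0.35 with summed reads). Selplg, a glycoprotein that selectins bind, differed by 2.76 ± 0.14. Itgb3 differed by 5.90 ± 1.85. Itgb7, the gut-homing integrin chain, was at 7.23, 7.60 and 7.53 in monocytes and 3.65, 3.13 and 4.47 in neutrophils (-3.70 ± 0.57). The lower values of Itga2 (-6.09 ± 1.88) and Itga6 (-3.0 ± 0.87) followed the squamous libraries, with monocyte levels of 1.56, -1.07 and 0.44 and 1.98, -1.97 and 0.63. Itga6 was no longer called without monocyte library III (-2.11) and Itga2 without neutrophil library V (-4.53). Of 47 interferon-stimulated genes, 16 were higher in neutrophils and 6 in monocytes, with a median of 0.37 as deposited and -0.53 with summed reads. Slfn4 (4.67 ± 0.46) and Isg20 (4.01 ± 0.35) were at one end and Mx1 (-3.05 ± 0.57) and Mx2 (-2.85 ± 0.53) at the other.

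Several genes that load MHC class II were higher in monocytes, while the chains H2-Ab1 and H2-Aa given above were not. Of 20 class II genes, 9 were higher in monocytes and 2 in neutrophils (H2-Oa and Cd80), with a median of -0.95. H2-Eb1 (1.38 ± 0.64, adjusted p = 0.074) and H2-Ob (2.49 ± 1.23, adjusted p = 0.094) were not called, though every neutrophil library was higher. With summed reads (voom), H2-Ob was called higher in neutrophils (1.74, adjusted p = 0.0022) and H2-Eb1 was not (0.58, adjusted p = 0.43). Cd74 (-0.40 ± 0.47) overlapped between the populations. The transactivator Ciita was at 2.53, 2.68 and 2.56 in monocytes and -0.44, -1.33 and -0.05 in neutrophils (-3.20 ± 0.36, adjusted p = 3.2e-07). The peptide exchange chains H2-DMa (-2.12 ± 0.37) and H2-DMb1 (-1.97 ± 0.35, with 22.3% of its windows shared with H2-DMb2), the reductase Ifi30 (-3.07 ± 0.27), the protease Ctss (-2.90 ± 0.19) and the costimulator Cd86 (-1.63 ± 0.15) were lower in neutrophils. H2-DMb2, another exchange chain, was at 2.25, 2.43 and 3.42 in neutrophils and 1.12, -0.55 and 0.30 in monocytes (2.41 ± 1.29, adjusted p = 0.12), without overlap, and was called higher in neutrophils with summed reads (1.73, adjusted p = 0.020) and with the pool as a block among the 6 LP libraries (adjusted p = 0.027). In 7 of the 9 monocyte-high genes neutrophil library V was the highest neutrophil library. Of 23 class I genes, 9 were higher in neutrophils and 7 in monocytes, with a median of 0.44 as deposited and -0.40 with summed reads. Lysosomal genes went both ways, 14 and 17 of 42. For the class I and lysosomal lists alike, the shares over all genes tested were 24.1% and 30.4%. Ctsd (1.92 ± 0.17) and Ctse (2.44 ± 0.50) were higher in neutrophils, and Lgmn (-2.73 ± 0.15), Ctsc (-2.62 ± 0.18), which activates granule proteases, and Lamp1 (-2.27 ± 0.70) were higher in monocytes, Lamp1 no longer so without neutrophil library IV (-1.61). Of the windows of Ctsd, 32.3% are shared with an overlapping predicted gene.

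Genes of glucose uptake and breakdown were split. Of 27 glycolysis genes, 15 were higher in neutrophils and 5 in monocytes, but the median changed sign with the scaling (0.59 as deposited, -0.24 with summed reads). Slc2a3, the high-affinity glucose transporter GLUT3, was at 7.93, 7.52 and 7.99 in neutrophils and 0.40, -2.27 and -0.45 in monocytes (difference 8.58 ± 0.69, 384-fold, adjusted p = 3.5e-09). Slc2a1, GLUT1, was high in both and differed by 1.5 ± 0.16. Pfkfb3, which makes the activator of phosphofructokinase, was at 8.05, 8.42 and 7.92 against 4.99, 5.36 and 4.99 (3.02 ± 0.19). The heart-type lactate dehydrogenase chain Ldhb was lower (-2.95 ± 0.48), and Pfkm had no more than 3 reads in any neutrophil library and was at least 9.89-fold higher in monocytes. Of the windows of Ldhb, 20.4% are shared with other genes. Of 19 glycogen and pentose phosphate genes, 7 were higher in neutrophils and 4 in monocytes. Among them, the glycogen-targeting subunit Ppp1r3b (4.91 ± 0.41) and the glycogen phosphorylase Pygl (3.49 ± 0.19) were higher in neutrophils.

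Genes of mitochondrial metabolism leaned towards monocytes. Of 25 citric acid cycle genes, 19 were higher in monocytes (median -1.51), among them Idh3a (-2.92 ± 0.39). The 1 gene higher in neutrophils was Acod1, which diverts aconitate to the antimicrobial itaconate, at 12.17, 11.66 and 11.76 against 8.22, 8.19 and 7.76 (3.81 ± 0.22, adjusted p = 4.8e-11). Of 75 subunits of the respiratory chain and ATP synthase encoded in the nucleus, 31 were higher in monocytes and 6 in neutrophils (median -0.65). Ndufa5 had no more than 3 reads in any neutrophil library and was at least 5.56-fold higher in monocytes. Of the reads assigned to genes, those of the mitochondrial genome made up 0.229% to 0.268% in neutrophils and 1.05% to 1.13% in monocytes.

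Genes of protein synthesis leaned the same way. Of 77 cytosolic ribosomal protein genes, 46 were higher in monocytes and 2 in neutrophils (median -1.10). For mitochondrial ribosomal proteins these counts were 35 and 1 of 74 (median -1.12), and for translation factors 29 and 4 of 38 (median -1.29). Eif3e, a subunit of the initiation factor eIF3, was at 3.51, 2.66 and 3.13 in neutrophils and 6.21, 5.81 and 5.96 in monocytes (-2.89 ± 0.21). Rpsa (-2.40 ± 0.34) and Mrps31 (-4.21 ± 0.53) were lower in neutrophils too, with 28.6% of the windows of Rpsa shared with pseudogenes and other genes. Of 30 endoplasmic reticulum genes, 17 were higher in monocytes and 6 in neutrophils (median -0.94).

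Survival genes were divided: of 33, 14 were higher in neutrophils and 8 in monocytes, with a median of 0.50 as deposited and -0.34 with summed reads. Bcl2l1, the survival factor BCL-XL, was at 9.23, 8.93 and 8.83 in neutrophils and 4.32, 4.31 and 3.47 in monocytes (4.97 ± 0.24, adjusted p = 3.2e-12). The death receptor Fas (3.37 ± 0.31) was also higher in neutrophils, and its ligand Fasl was at least 34.7-fold higher, at 0.60, 1.11 and 0.21. Mlkl, the executor of necroptosis, was lower (-2.81 ± 0.47). Of 22 chromatin and nuclear envelope genes, 10 were higher in neutrophils and 8 in monocytes. Padi4, the histone-citrullinating enzyme of extracellular traps, was at 6.25, 6.29 and 5.87 against 1.16, 1.34 and 2.15 (4.58 ± 1.28), whereas its relative Padi2 was lower (-3.93 ± 0.61). The lamins went opposite ways, Lmnb1 at 10.16, 9.89 and 10.33 against 7.18, 7.21 and 7.16 (2.94 ± 0.15) and Lmna at 3.82, 3.51 and 4.28 against 6.61, 6.47 and 6.62 (-2.70 ± 0.26).

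Of 23 eicosanoid genes, 8 were higher in neutrophils and 7 in monocytes, beside 24.1% and 30.4% of all genes tested. Besides Alox5, the prostaglandin synthase Ptgs1 was higher in neutrophils (2.79 ± 0.21), and the prostaglandin E synthase Ptges (-2.56 ± 0.58) and the leukotriene receptor Cysltr1 (-3.60 ± 0.59) were higher in monocytes. Alox12 was called (-5.06 ± 1.78) but was high in monocyte library III alone, at 2.53, -4.82 and -3.02, and lost its call without that library (-2.91) or without neutrophil library IV (-4.05) or V (-4.05). Of 66 S and G2/M phase genes, 9 were higher in neutrophils and 13 in monocytes, shares below those over all genes tested.

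**Figure D4:**
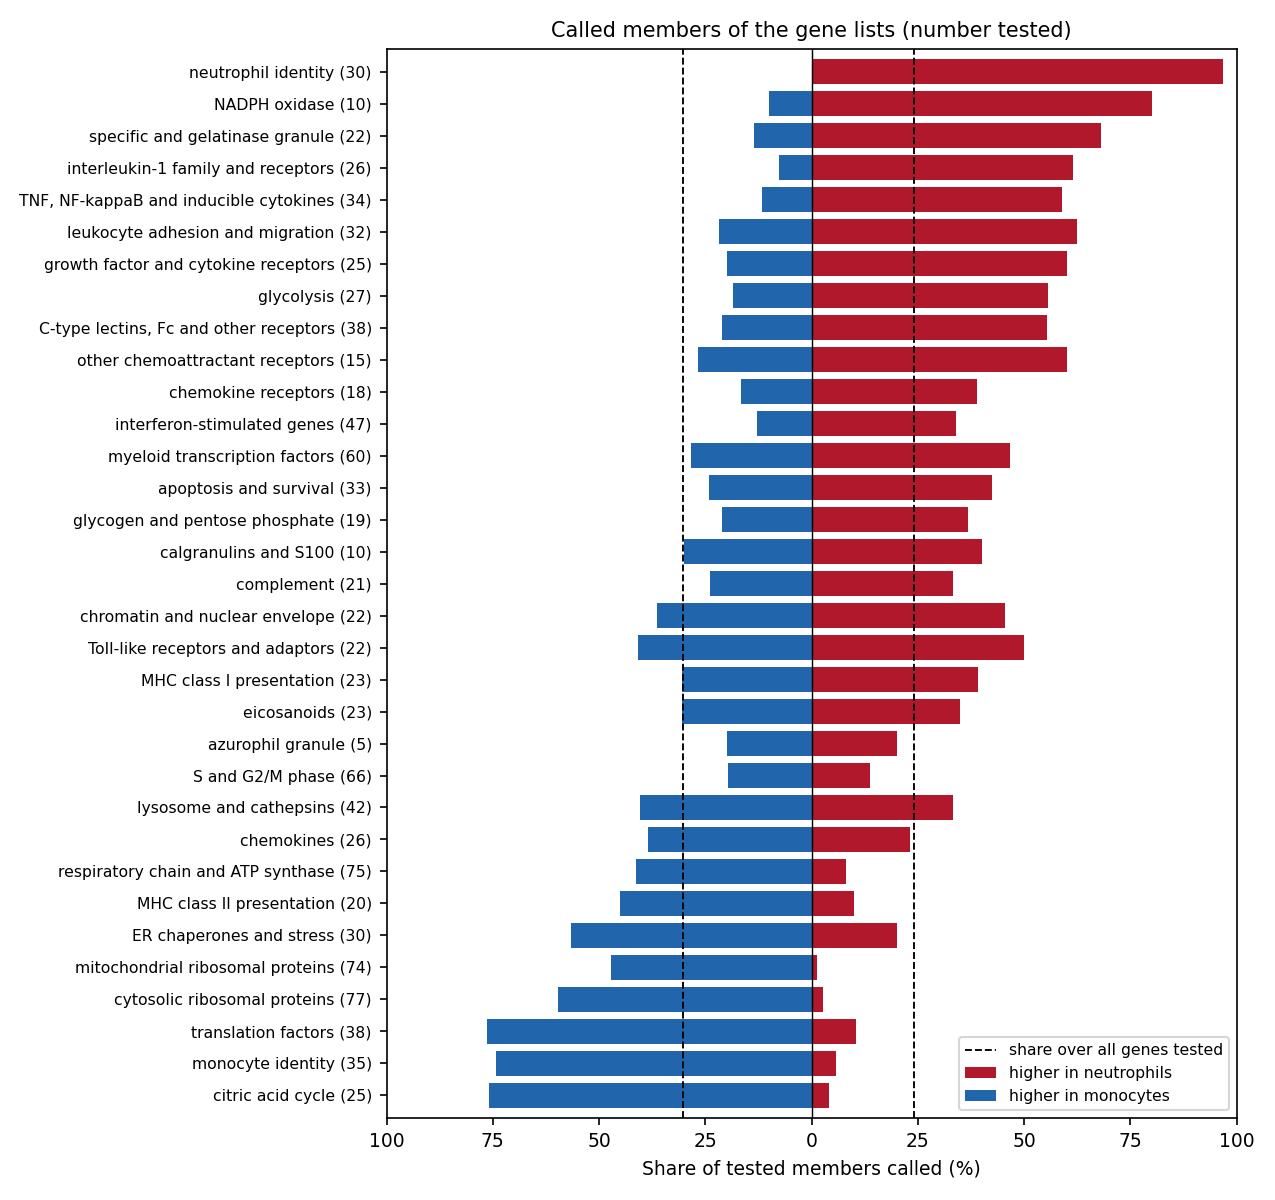
Share of the tested members of each gene list (number tested in parentheses) called higher in LP neutrophils (red, to the right) or higher in LP monocytes (blue, to the left), in percent, with dashed lines at the shares over all 12878 genes, 24.1% and 30.4%. Neutrophil identity genes and the citric acid cycle stand at opposite ends, with 29 of 30 higher in neutrophils and 19 of 25 higher in monocytes.

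The same contrast in tumours was set beside the LP values to show where the LP cells differ. In tumours 2997 genes (23.3%) were called higher in neutrophils and 4489 (34.9%) higher in monocytes. Of the LP calls, 75% of those higher in neutrophils and 74.5% of those higher in monocytes were also called in the same direction in tumours, which is 77.6% and 64.9% of the tumour calls. Opposite calls were made for 54 of the genes higher in LP neutrophils and 31 of those higher in LP monocytes. Across genes, which are not independent replicates, the differences correlated with a Pearson r of 0.724 and a Spearman rho of 0.748 (12878 genes), and both contrasts were fitted with 1 shared estimate of the spread. Of the 30 neutrophil identity genes, 0 differed between the tissues by limma, and 2 did at an unadjusted p under 0.05.

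A test of the difference itself called 1173 genes (9.11%), 708 with the LP difference above the tumour difference and 465 below it. The balance depends on the scaling: 60.4% of these calls lay above as deposited, 84% with summed reads as library size (1037 and 197 genes) and 46.1% after each library was centred on its median (513 and 601 genes). Car13, a carbonic anhydrase, was at 0.03, 1.48 and 2.21 in LP neutrophils and 3.60, 3.92 and 3.5 in LP monocytes, against -8.02, -8.02 and -3.09 and 2.20, 2.32 and 2.33 in tumours of pools I, II and V. Its LP difference of -2.43 lay 6.23 ± 1.20 above the tumour difference of -8.66 (adjusted p = 0.0028). Tlr9, the receptor for bacterial DNA, was at 1.04, 1.08 and 1.46 and 3.61, 3.5 and 3.65 in LP and at -8.62, -2.80 and -8.62 and 1.69, 1.03 and 1.93 in tumours (5.84 ± 1.46, adjusted p = 0.016). LP neutrophils read both genes in every library, and the tumour neutrophils were near the limit of detection, so that the size of these differences depends on the prior count. The LP contrast of Tlr9 itself was not called (adjusted p = 0.056), and that of Car13 was lost without monocyte library IV (-2.31) or neutrophil library III (-1.83). The chemokine Ccl7 (5.26 ± 1.53), the calcineurin regulator Rcan1 (3.77 ± 0.57) and the membrane protein Mmd (3.51 ± 0.38) were the next largest of the called genes with a mean of at least 10 RPKM in 1 of the 4 groups, with predicted genes and immunoglobulin segments left out. Below that level some differences were larger, such as Mx2 (6.12 ± 0.75). Mmd differed by 0.68 ± 0.27 in LP as deposited and by -0.15 with summed reads, and lost its call without monocyte library III (0.52) or neutrophil library III (0.61) or V (0.70). It shares 19% of its windows with other genes.

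Members of the lists above also differed between the tissues. The neutrophil excess was larger in LP for Pfkfb3 (3.02 in LP, 0.74 in tumours, adjusted p = 4.3e-05), Ppp1r3b (4.91 and 2.73), Il17ra (2.32 and 0.35) and Cxcr4 (3.41 and 1.55). It was smaller in LP for Acod1 (3.81 and 6.25, adjusted p = 1.2e-04), Csf1 (4.62 and 6.67), Nfkbiz (2.57 and 3.74) and C5ar1 (1.95 and 2.85). The difference of Pparg was -6.33 in LP and 1.68 in tumours (adjusted p = 0.0012). Lypd3 (-16.19 ± 2.83), Krt17 (-11.26 ± 3.15), Ifi202b (-9.02 ± 2.42), Hspb1 (-4.12 ± 1.05) and Jup (-4.02 ± 0.78) had the lowest LP minus tumour values under the same limit of 10 RPKM, and in all 5 LP monocyte libraries III and V were above library IV. Hspb1 shares 48.7% of its windows with other genes. With library IV as the only LP monocyte library, 521 genes were called for the difference.

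**Figure D5:**
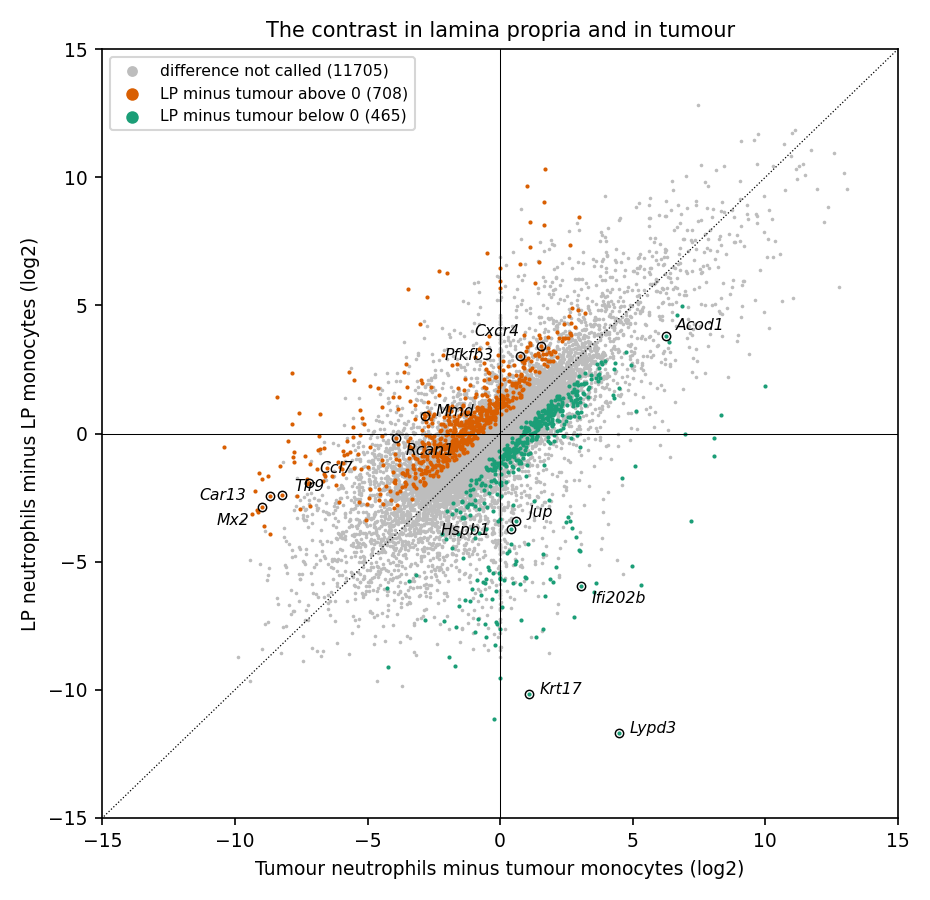
Difference between neutrophils and monocytes (log2) in LP (vertical) against the same difference in tumours (horizontal) for 12878 genes, 1 point a gene, with genes whose contrasts differed in orange (708, LP above tumour) and green (465, LP below tumour) and equality dotted. Most genes follow the diagonal, Acod1 lies at 3.81 in LP and 6.25 in tumours, and the squamous genes Krt17 and Lypd3 fall far below 0 in LP alone.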

How the data were processed

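RNA-seq of cells sorted from colon LP and colon tumours was used as deposited. The authors lysed sorted cells, amplified full-length cDNA with a modified SMARTSeq v2 protocol that does not mark strand, aligned paired reads to the mouse genome GRCm38 with STAR 2.3, counted them per gene with featureCounts 1.5 and normalised them in edgeR (per the labels and the submitters' processing notes; the edgeR and GENCODE versions are not given in the sources used here). The deposited unit is log2 RPKM for 17301 genes in 24 libraries. Whole reads were recovered for 100% of the 415224 values (tolerance 0.001 reads), and depths, scalings and the bound for genes with no more than 3 reads in each library of a group come from them. Such bounds cover counting error only, since reads without molecular identifiers are not independent molecules. Spike-ins were added per the labels, and no such row was found among those read here.

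The 12878 genes whose mean level reached 1 RPKM in any of the 8 groups were fitted with limma 3.58.1 (R 4.3.3; lmFit and eBayes with a trend) on all 24 libraries with 8 group means and no covariate, with Benjamini-Hochberg adjustment over these genes and a threshold of 0.05. The fit was also run on simulated data with normal noise and few changed genes. That setting is unlike these data, so nothing about the calls here is drawn from it. The labels call the pool number the donor, so the numbers pair the LP libraries: deviations from the group means correlated by 0.029, 0.086 and 0.108 within pools III, IV and V and by -0.087 to 0.003 between pools. Because deviations cancel within a group, the values between pools are tied to those within pools and are no separate reference. The p-values measure the spread between libraries of pooled mice.

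Named genes were the sort transcripts, the 12 largest rises and falls among called genes whose libraries did not overlap and whose higher group reached 10 RPKM (predicted genes, pseudogenes and receptor segments left out), the 8 highest genes of each population, members of 33 gene lists by extreme difference or textbook role, and the 5 largest and smallest differences from the tumour contrast. Some of these genes are not reported here. The members and lists were chosen with earlier results of these data known. Gene symbols and positions come from GENCODE vM21, and 111 of the 17301 genes had no entry there. Windows of 51 bases, the read length, were compared between annotated transcripts to find genes that share sequence. Promoter bases come from the RefSeq table of GRCm38.p6. The alternatives were other pseudocounts, filters, scalings and libraries, array weights, the pool as a block, voom on the recovered reads, and each LP library left out.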

Additional observations from a re-analysis of the deposited data

Results flagged for a closer look

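A test of the difference between the LP and the tumour contrast called 1173 genes, and the named ones are given as the LP difference minus the tumour difference on the log2 scale.

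Among genes with monocyte libraries III and V above library IV, Lypd3 stood at -16.19, Krt17 at -11.26, Ifi202b at -9.02, Hspb1 at -4.12 and Jup at -4.02. The fitted sizes of Lypd3 and Krt17 rest on neutrophil libraries with no more than 3 reads and depend on the prior count. Of all 465 genes below 0, 25 had monocyte libraries III and V at least 4-fold above library IV. Among the 3913 genes called higher in LP monocytes, 155 did.

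Lipid and metabolic genes below 0 were Pparg (-8.01), Pfkm (-5.17), Ndufa5 (-5.14) and Acod1 (-2.44). Inflammatory and lysosomal genes below 0 were Csf1 (-2.05), Msr1 (-1.78), Lyz2 (-1.27), Nfkbiz (-1.17), Ctsc (-1.17), Nlrc4 (-1.02) and C5ar1 (-0.90).

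Above 0 were Car13 (6.23), Mx2 (6.12), H2-DMb2 (6.03), Tlr9 (5.84), Ccl7 (5.26), Rcan1 (3.77), Mmd (3.51), Pfkfb3 (2.27), Ppp1r3b (2.18), Il17ra (1.97), Cxcr4 (1.86), Tgfbr2 (0.96), Cd86 (0.90) and Fcgr3 (0.86). Mx2, an interferon-induced antiviral GTPase, was at -8.67, -8.67 and -8.67 in tumour neutrophils of pools I, II and V and at -0.59, 0.92 and -0.32 in LP neutrophils of pools III, IV and V. The tumour neutrophil libraries stand at the value given to a gene with 0 reads, so the fitted size for Mx2 depends on the prior count. In monocytes it was at 0.14, 1.10 and -0.33 in tumours and 2.56, 3.49 and 2.51 in LP.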

How the results depend on the processing

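The LP contrast kept its counts within 1.5 times under most alternatives. With summed reads as library size (voom on the recovered reads), 1929 genes were higher in neutrophils and 6360 higher in monocytes. With library IV as the only LP monocyte library, an alternative chosen after seeing the data in which the lone library is assumed to vary like the other groups, 2525 genes were higher in monocytes. The difference between the LP and the tumour contrast was called for 528 genes under quantile normalization and 521 with library IV alone, against 1173. Leaving out 1 LP library at a time gave 2773 to 2921 genes higher in neutrophils and 3481 to 3779 higher in monocytes, and leaving out 1 library of the tumour or LP groups gave 865 to 1284 for the difference. The cause of these shifts was not tested, apart from the smaller number of libraries in the last fits. Of 204 genes taken by the naming rule and tested, 188 were called, and 137 of those kept call and direction in all 21 alternative settings.

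With the pool as a replicate block, the counts were 3161 and 3927 (a fixed effect), 3173 and 3991 (a random effect) and 2815 and 2664 (only the 6 LP libraries). With the fixed block in all 24 libraries, Ccl5 lost its call and Chil3 and H2-Aa gained one. With the block in the 6 LP libraries alone, Il18r1, Itga6, Il1b, Cxcl10, Hspb1, Actb, Il17rc, Cxcr5, Cd276, Ccl12, Mmd, Krt10, Cd300c, Cd180, Cd14 and Fth1 lost their calls, and Chil3, Tlr9, Ccl7, H2-DMb2 and H2-Aa gained one. The block changed no other call of a gene named in the text.

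Direction changed under quantile normalization for Il1rn (-0.13), Spi1 (-0.39), Tlr2 (-0.17), Actb (-0.094), Itgam (-0.093), Prtn3 (0.69), H2-Ab1 (-1.05), H2-Aa (-0.20) and Emilin2 (-0.36). It changed with median-centred libraries for Thbs1 (0.021), Prtn3 (0.16) and Rcan1 (0.12), with array weights for Cebpb (-0.088), with summed reads for Mmd (-0.15), Serpinb1a (-0.13) and H2-Ab1 (-0.58), and with library IV alone for Cebpe (-0.24). Leaving out 1 library gave -1.75 to 2.07 for Cebpb, -0.59 to 0.18 for Prtn3, -0.44 to 1.44 for Serpinb1a, -0.65 to 0.12 for Rcan1 and -0.11 to 0.48 for H2-Ab1. Among genes named in the text, voom on the recovered reads no longer called Ifi202b, Itga6, Aqp3, Lypd3, Alox12, Ccl12, Krt10, Krt16 and Krt17. Genes with few reads in a group are limited by depth, and their fitted sizes depend on the prior count.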

Other observations

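Of 12 protein-coding mitochondrial genes in the table, 9 were called lower in neutrophils by limma, with differences from -1.03 for mt-Nd2 to -2.36 for mt-Atp6. The levels were uneven: mt-Atp6 was at means of only 0.409 RPKM in neutrophils and 1.76 RPKM in monocytes, and mt-Co1 (-1.67) at 738 and 2350 RPKM. For mt-Co2, mt-Co3 and mt-Nd3, all under 1 RPKM on average in both populations, the differences were -1.22, -0.94 and -1.45, and they did not pass the threshold. In the neutrophil libraries mitochondrial genes took 0.229% to 0.268% of the reads assigned to genes, against 1.05% to 1.13% in the monocyte libraries. Mitochondrial reads that were not assigned to a gene are not in these shares.

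Pool V stood at one end of the neutrophil libraries for several lists. Neutrophil library V was the highest of the 3 for 20 of 26 called monocyte identity genes and for 7 of 9 called MHC class II genes, beside 1714 of all 3913 genes called higher in monocytes. It was the lowest for 16 of 29 called neutrophil identity genes and for 11 of 15 called granule genes, beside 1275 of all 3103 genes called higher in neutrophils. Monocyte library IV was the highest monocyte library for 16 of those 29 and 12 of those 15 genes, beside 1376 of the 3103.

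Acta2, smooth muscle actin, was at 5.45, 5.62 and 6.11 in neutrophils and 1.88, 2.23 and 0.48 in monocytes (difference 4.2 ± 0.58, adjusted p = 4.9e-06, limma). Tagln was called in the same direction, but its libraries overlapped, and with summed reads it was at 0.34 (voom, adjusted p = 0.53). Des, of the same list, was not called (-1.25 ± 1.75), with 0 reads in each neutrophil library and in monocyte libraries III and IV. Myh11 was too low to be tested. Siglecf, a surface antigen of eosinophils, was at 5.25, 4.22 and 4.60 and 0.08, 0.38 and -1.56 (difference 5.05 ± 1.19, adjusted p = 0.0014). Ccr3 of the eosinophil list was also called higher in neutrophils, while Ear2 (-1.19 ± 1.13) and Alox15 (-2.95 ± 3.09) were not called.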
